A study of Mus musculus with 3 samples.

Results

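The genes described here are 34 mouse genes for protein folding, translocation and degradation in the endoplasmic reticulum (ER), together with the sensors and transcription factors of ER stress. They were chosen by symbol, matched through NCBI gene IDs, and required to reach 1 FPKM (fragments scaled to gene length and to the library's mapped fragments) in at least 1 library. All 34 met this rule, out of 17615 genes listed in any library, of which 12961 reached the same level. The rule uses no measured value beyond that minimum. The members nearest to it were Ern1 and Derl2, whose highest values were 12.4 and 14.2 FPKM, and no member fell below it. By role they comprise 9 chaperones, 2 lectin chaperones, 6 disulfide and proline folding enzymes, 7 genes of the translocon and signal peptidase, 6 degradation genes, and 4 stress sensors and transcription factors.

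The study compared macrophages from mice carrying acute myeloid leukemia that did or did not overexpress M-CSF (macrophage colony-stimulating factor). All recipients were C57BL/6J mice aged 6 to 8 weeks that were given 800000 GFP+BFP+ leukemia cells each, with no irradiation. Survival in the model was 30 to 40 days per the labels. Leukemia cells were labelled as high in mM-CSF, as high in sM-CSF, or as having neither (control), with the prefixes m and s left unexplained. F4/80+ cells that were GR1- and CD115int were sorted from the spleen on day 18 and their total RNA was sequenced, giving 1 library for each of the 3 groups. Every group, the control included, carried leukemia, and no healthy spleen was part of the comparison. The sources used here do not say whether animals were pooled. With no replicates, no test between groups was possible, no p-value is given, and each difference describes these libraries.

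Proteins destined for secretion or for membranes enter the ER through the Sec61 translocon, lose their signal peptide to the signal peptidase, and are folded by chaperones, lectins and disulfide isomerases. Proteins that fail to fold are sent back to the cytosol by ER-associated degradation. When unfolded proteins accumulate, the sensors IRE1 (gene Ern1), PERK and ATF6 start the unfolded protein response, in which spliced XBP1, cleaved ATF6 and translated ATF4 raise the transcription of folding, degradation and amino acid genes. Macrophages use this machinery for their own cytokines and lysosomal proteins, while plasma cells, which secrete antibody, are the classic example of a cell with an expanded ER.

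The control library had 9.09e+06 estimated counts, against 8.57e+06 for mM-CSF and 8.94e+06 for sM-CSF. Macrophage markers were present: all 13 on a list headed by Csf1r and Adgre1 were above 0. Their summed levels were 2381 FPKM in control, 5101 in mM-CSF and 2293 in sM-CSF. The median difference of the 13 in log2(FPKM + 1) was 0.21 for mM-CSF against control, with 9 above 0 and 4 below. Markers of other cells were also present in every library. A plasma cell list of 15 genes had 7 listed, with summed levels of 1279, 4032 and 1363 FPKM in the same order, and its 8 immunoglobulin constant-region genes were not listed in the tables. Primary granule genes of early myeloid cells summed to 190.3, 949.6 and 207 FPKM. B cell genes summed to 1380.1, 2776 and 2602 FPKM, and conventional dendritic cell genes to 304, 69.6 and 271 FPKM. Abundant genes weigh most in such sums. The B cell sum was higher in mM-CSF than in sM-CSF, but 7 of its 10 genes had a difference below 0 (median -0.33). In bulk RNA, a change in the number of cells of a type and a change in the RNA that each cell carries cannot be told apart.

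Promoter sequences are shown first because several of these genes are textbook holders of the ER stress response element (ERSE), a binding site for NF-Y together with ATF6 or XBP1. RefSeq promoters of the GRCm38.p6 assembly, 250 bases before to 50 bases after the annotated start, were matched by symbol for 28 of 34 members. Hyou1, Manf, Sec61a1, Sec11c, Derl1 and Atf6 had no entry under these symbols. The ERSE, searched on both strands as CCAAT and CCACG with 9 bases of any kind between them, was found in 37 of 27025 genes with a promoter (0.137%), in 39 of 32851 promoters (0.119%), and in 9 of the 28 members (32.1%). These were Hspa5, Hsp90b1, Dnajc3, Creld2, Calr, Canx, Pdia6, Ero1b and Syvn1. The shorter ERSE-II, ATTGG and CCACG with 1 base between them, was in 12 promoters (0.0365%), among them Herpud1 and Dnajb11. An unfolded protein response element (UPRE, TGACGTGG) was in 0.676% of promoters and an ATF4 element (TGATGNAAT) in 0.965%, and neither string was in a member's window. Matches of different motifs overlapped in 3 places over all promoters, and no member held more than 1 kind. Each element is printed 5′ to 3′ on the gene's strand, with capitals marking its fixed bases and lower case its spacer and up to 10 flanking bases. CCAAT followed by CCACG is the element as given, and CGTGG followed by ATTGG is its reverse complement.
Hspa5 ERSE, chr2:34772015-34772053, plus strand: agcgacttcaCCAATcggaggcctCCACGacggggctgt
Dnajc3 ERSE, chr14:118937817-118937855, plus strand: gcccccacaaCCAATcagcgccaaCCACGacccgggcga
Calr ERSE, chr8:84847065-84847103, minus strand: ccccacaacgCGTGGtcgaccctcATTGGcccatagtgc
Canx ERSE, chr11:50325790-50325828, minus strand: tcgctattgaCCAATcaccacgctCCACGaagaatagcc
Pdia6 ERSE, chr12:17266481-17266519, plus strand: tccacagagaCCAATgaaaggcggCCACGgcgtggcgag
Ero1b ERSE, chr13:12565672-12565710, plus strand: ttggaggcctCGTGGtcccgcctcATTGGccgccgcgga
Syvn1 ERSE, chr19:6046522-6046560, plus strand: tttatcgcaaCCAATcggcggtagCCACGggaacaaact
Herpud1 ERSE-II, chr8:94386367-94386397, plus strand: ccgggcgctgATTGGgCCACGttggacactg
Dnajb11 ERSE-II, chr16:22857852-22857862, plus strand: ATTGGcCCACG

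Hsp90b1 and Creld2 are printed over the 250 bases before their starts, since Hsp90b1 was the member with the highest level in any library and the only one with a pair of ERSE matches, and Creld2 was the ERSE holder with the largest difference between libraries. In Hsp90b1 the first match is in the given orientation and the second, nearer the start, is reversed. In Creld2 the single match is reversed.
Hsp90b1 promoter, chr10:86705445-86705694, minus strand: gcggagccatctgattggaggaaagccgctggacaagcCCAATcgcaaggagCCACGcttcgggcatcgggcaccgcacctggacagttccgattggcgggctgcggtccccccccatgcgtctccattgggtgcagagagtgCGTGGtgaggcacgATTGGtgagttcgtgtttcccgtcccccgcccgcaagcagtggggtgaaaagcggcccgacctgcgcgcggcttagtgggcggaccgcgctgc
Creld2 promoter, chr15:88819396-88819645, plus strand: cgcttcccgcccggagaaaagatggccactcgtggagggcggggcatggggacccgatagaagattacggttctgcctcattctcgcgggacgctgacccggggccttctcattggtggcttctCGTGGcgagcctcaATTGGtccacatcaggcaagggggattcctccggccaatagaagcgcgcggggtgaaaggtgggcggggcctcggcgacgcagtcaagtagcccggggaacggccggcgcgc

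**Figure D1:**
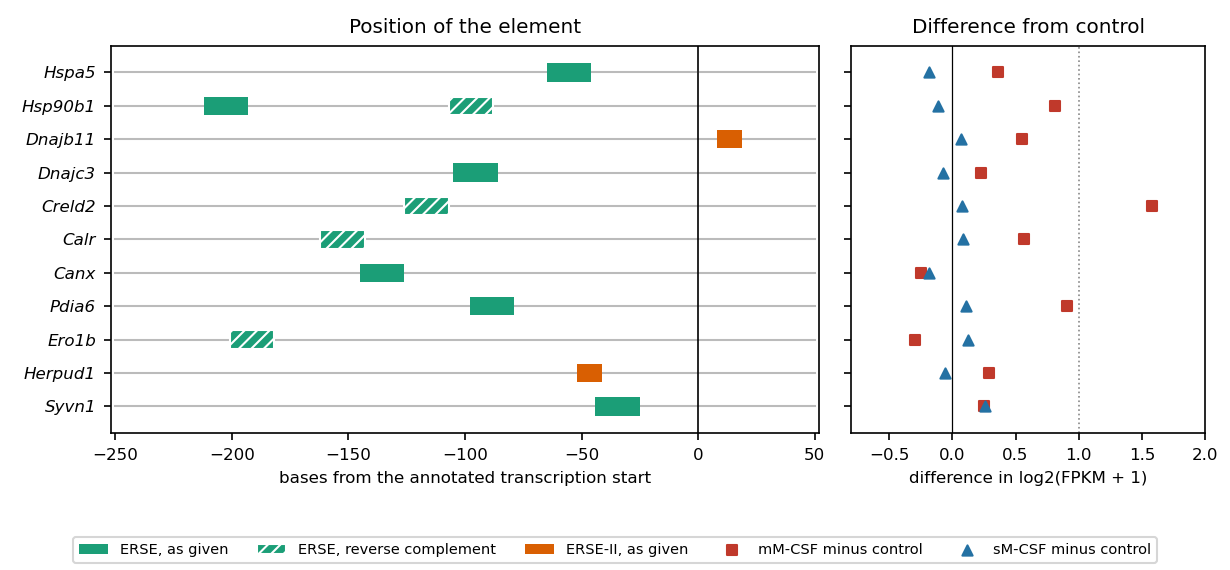
Left, position of each ERSE or ERSE-II match in the promoters of the 11 members that hold one, in bases from the annotated start; right, the difference in log2(FPKM + 1) from the control for the same genes, 1 library per group. Matches lie between 212 bases before the start (Hsp90b1) and 18 bases after it (Dnajb11), and only Creld2 passes the dotted line at a difference of 1 (2-fold), in the mM-CSF library.

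Members with and without an element were both among those higher in the mM-CSF library. A gene is counted as higher or lower below when its difference in log2(FPKM + 1) is at least 1 in size (2-fold) and its higher library has at least 5 FPKM. By this size rule 1 of the 11 members with either element was higher in mM-CSF than in control, as were 6 of the 17 whose promoter held neither. Over all genes the rule was met upward by 8.97%. The median difference was 0.36 for the holders and 0.56 for the others. With the length trend, described below, removed, 1 of the 11 and 3 of the 17 were higher, beside 2.93% of all genes. Differences were then above 0 for all 11 holders and for 14 of the 17 others, with medians of 0.36 and 0.56. The Creld2 element lies between head-to-head genes, so that the same bases also fall in the promoter of Alg12, a mannosyltransferase of glycan assembly. Alg12 measured 8.70 FPKM in control, 9.48 in mM-CSF and 13.1 in sM-CSF, while Creld2 measured 61.4, 185 and 64.8. The Calr element is likewise shared with the neighbouring 1700122E12Rik.

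Of the 30 folding, translocation and degradation genes, 9 were higher in the mM-CSF library than in control, beside 8.97% of all genes. None was higher in the sM-CSF library, beside 0.785% of all genes. With the length trend, described below, removed, the 9 became 5, beside 2.93% of all genes. The stress sensor Ern1 was lower in mM-CSF, as were 15.1% of all genes. The 34 members together held 0.853% of the control's counts, 1.26% of the mM-CSF library's and 0.827% of the sM-CSF library's. The median member measured 61.7 FPKM in control, 133 in mM-CSF and 66.1 in sM-CSF. The most abundant member was Calr in control (497 FPKM) and sM-CSF (529 FPKM), and Hsp90b1 in mM-CSF (757 FPKM). Lowest were Derl2 in control (12.3 FPKM) and Ern1 in mM-CSF (1.62 FPKM) and sM-CSF (6.46 FPKM).

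**Figure D2:**
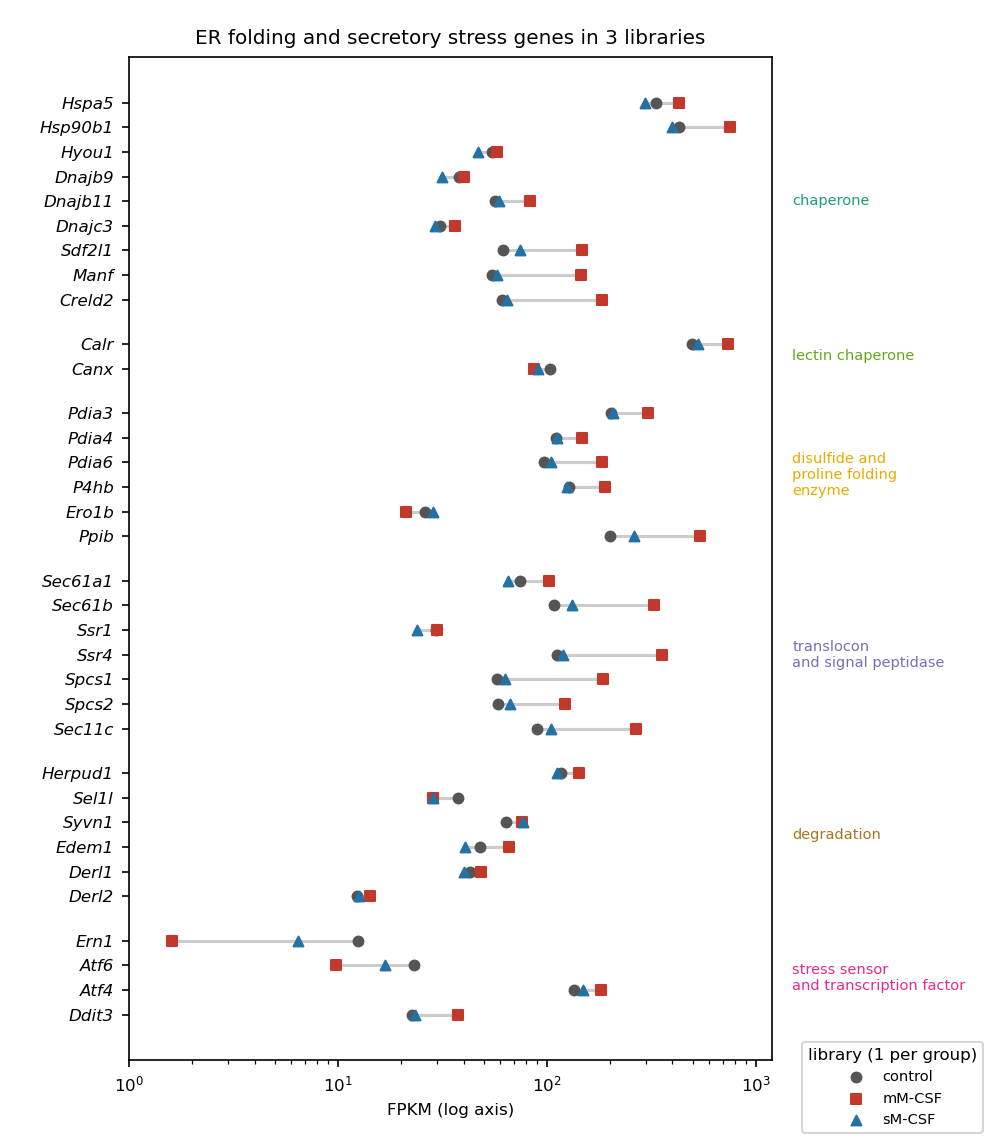
FPKM (log axis) of each of the 34 members, 1 point per library (control, mM-CSF or sM-CSF), grouped by role; the grey line joins a gene's lowest and highest library. The mM-CSF squares stand apart to the right for Creld2, Manf, Ppib and most translocon and signal peptidase genes, and to the left for Ern1 and Atf6. Control and sM-CSF points lie closer together for most genes, with Sel1l and Syvn1 among the exceptions.

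Among the 9 chaperones, 3 met the size rule as higher in mM-CSF than in control. All 9 differences were above 0 as deposited, but those of Hspa5, Hyou1, Dnajb9 and Dnajc3 turned below 0 under at least 1 other scaling or with the length trend, described below, removed. Hspa5 (BiP, the HSP70 of the ER lumen, which also holds the stress sensors inactive) measured 334 FPKM in control, 430 in mM-CSF and 294 in sM-CSF. Hsp90b1 (GRP94, the ER's HSP90) measured 431, 757 and 398 FPKM in the same order. In both, mM-CSF was the highest and sM-CSF the lowest library. The ratio of count shares, mM-CSF over control, was 1.29 (95% interval 1.25 to 1.33) for Hspa5 and 1.77 (1.72 to 1.81) for Hsp90b1, where the exact conditional interval covers counting error only.

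The chaperones that met the rule were 3 small luminal proteins known as targets of the unfolded protein response. Creld2, a calcium-binding protein with isomerase activity, has its values above and was 3.03 times as high in mM-CSF as in control (2.79 to 3.30). Manf, a resident ER protein that binds BiP, measured 54.5 FPKM in control, 145.8 in mM-CSF and 58.0 in sM-CSF, a ratio of 2.69 (2.51 to 2.89). Sdf2l1, a partner of ER J-proteins, measured 61.9, 147.8 and 74.7 FPKM, a ratio of 2.4 (2.18 to 2.64). For each of the 3, control and sM-CSF lay within a log2 difference of 0.27, and mM-CSF stood well above both.

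The remaining chaperones did not meet the rule. Hyou1, a large HSP70-like protein that recharges BiP, measured 55.0 FPKM in control, 58.2 in mM-CSF and 46.8 in sM-CSF. The J-proteins, which deliver clients to BiP, ran from small to moderate differences. Dnajb9 measured 37.9, 40.4 and 31.5 FPKM. Dnajb11 measured 56.5, 83.0 and 59.4 FPKM, the only one of the 3 with a difference above 0.5 from control as deposited. Dnajc3, which also inhibits PERK, measured 30.9, 36.3 and 29.2 FPKM. With the length trend removed, differences in mM-CSF against control were 0.64 for Hyou1, -0.20 for Dnajb9, 0.32 for Dnajb11 and 0.96 for Dnajc3. The chaperones' median difference in log2(FPKM + 1) was 0.55 for mM-CSF against control and -0.08 for sM-CSF against control.

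The lectin chaperones, which hold glycoproteins while they fold, had differences of opposite sign in mM-CSF against control as deposited. With the length trend removed both were above 0, at 0.32 for Calr and 0.28 for Canx. Calr (calreticulin, the soluble form) measured 497 FPKM in control, 735 in mM-CSF and 529 in sM-CSF. Canx (calnexin, the membrane-bound form) measured 103 FPKM in control, 86.8 in mM-CSF and 90.7 in sM-CSF. Neither reached the size rule, with ratios of mM-CSF over control of 1.49 and 0.843.

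Of the disulfide and proline folding enzymes, Ppib alone met the rule. Ppib (cyclophilin B, a proline isomerase of the secretory pathway) measured 201 FPKM in control, 543 in mM-CSF and 263 in sM-CSF, so that mM-CSF was 2.71 times (2.57 to 2.87) and sM-CSF 1.31 times (1.23 to 1.39) as high as control. Its sM-CSF difference of 0.38 was the largest upward one among the 34 as deposited. With the length trend removed it was 0.15, and Syvn1 had the largest at 0.27. The protein disulfide isomerases were all highest in mM-CSF as deposited, and only the sign of Pdia4 turned under another scaling (TPM). Pdia6 measured 97.5, 183.7 and 105.2 FPKM and came nearest to the rule, with a ratio of 1.90 (1.79 to 2.01). Pdia3, which works with the lectins, measured 203, 304 and 208 FPKM. Pdia4 measured 111, 148 and 112 FPKM, and P4hb, the founding isomerase and a subunit of collagen prolyl hydroxylase, measured 128, 189 and 125 FPKM. Control and sM-CSF were close for each isomerase. Ero1b, an oxidase that recharges the isomerases, was lowest in mM-CSF as deposited, with 26.2 FPKM in control, 21.2 in mM-CSF and 28.6 in sM-CSF. With the length trend removed, its mM-CSF difference was 0.22 from control and 0.03 from sM-CSF.

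Of the translocon and signal peptidase genes, 5 of 7 were higher in mM-CSF, beside 8.97% of all genes, with a median difference of 1.56. With the length trend removed these became 2 of 7 (Spcs2 and Ssr1), beside 2.93% of all genes, and a median of 0.70. Sec61b, a small subunit of the channel, measured 109 FPKM in control, 328 in mM-CSF and 132 in sM-CSF. Ssr4, a subunit of the translocon-associated protein complex, measured 112, 358 and 120 FPKM. The mM-CSF library stood well above both others, with ratios over control of 3.04 (2.74 to 3.36) and 3.15 (2.90 to 3.43). The signal peptidase genes behaved alike. Spcs1, a small accessory subunit, measured 57.8, 186.8 and 63.4 FPKM, and its ratio of 3.26 (2.95 to 3.60) was the highest of any member. Sec11c, a catalytic subunit, measured 90.3, 268.9 and 104.6 FPKM, a ratio of 2.997 (2.73 to 3.29). Spcs2 measured 58.8, 122.2 and 66.6 FPKM, a ratio of 2.09 (1.97 to 2.23).

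Other subunits of these same complexes did not reach the rule. Sec61a1, the channel-forming subunit, measured 74.9 FPKM in control, 102.5 in mM-CSF and 65.6 in sM-CSF. Ssr1, of the same complex as Ssr4, measured 29.4, 29.9 and 23.95 FPKM. As a mean of the lengths given for the 3 libraries, Sec61a1 has 3039 bases against 552 for Sec61b, and Ssr1 has 9306 against 739 for Ssr4.

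None of the 6 degradation genes met the rule in any comparison of the values as deposited. Herpud1, a membrane scaffold of the degradation complex, measured 116.7 FPKM in control, 143.1 in mM-CSF and 112.4 in sM-CSF. Edem1, which passes misfolded glycoproteins on, measured 48.2, 65.8 and 40.6 FPKM. Both were highest in mM-CSF and lowest in sM-CSF. The ubiquitin ligase gene Syvn1 (HRD1) measured 64.0, 76.3 and 76.8 FPKM, and its partner Sel1l measured 37.5, 28.6 and 28.6 FPKM. In that pair mM-CSF and sM-CSF were alike as deposited, but with the length trend removed Sel1l differed from control by 0.51 in mM-CSF and by -0.17 in sM-CSF. The derlins, membrane proteins of the retrotranslocation step, were nearly level as deposited, with Derl1 at 43.0, 48.3 and 40.3 FPKM and Derl2 at 12.3, 14.2 and 12.6 FPKM. With the length trend removed their differences in mM-CSF against control were 0.34 and 0.57. The median difference of the degradation group was 0.22 for mM-CSF against control, or 0.49 with the length trend removed, where all 6 genes were above 0.

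Of the stress sensors and transcription factors, Ern1 and Atf6 were lower in mM-CSF than in control. The call of Atf6 ended with the length trend removed (-0.09), with a pseudocount of 5 and with upper-quartile scaling, and that of Ern1 ended in none of these (-1.91 with the trend removed). Ern1 (IRE1, the kinase and nuclease that splices Xbp1) measured 12.4 FPKM in control, 1.62 in mM-CSF and 6.46 in sM-CSF, from 453, 56 and 232 counts. It was 7.63-fold lower in mM-CSF than in control (5.77 to 10.3), 1.92-fold lower in sM-CSF than in control (1.64 to 2.26), and 3.97-fold lower in mM-CSF than in sM-CSF (2.95 to 5.42). The order was control, then sM-CSF, then mM-CSF, and none of the counting intervals reached 1. Atf6, a membrane-bound factor that is cleaved on stress, had the same order at 23.2, 9.78 and 16.9 FPKM, and was 2.36-fold lower in mM-CSF than in control (2.15 to 2.59).

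The transcription factors of the PERK branch had no such order. Atf4, which is controlled chiefly through translation, measured 135.9 FPKM in control, 182.9 in mM-CSF and 148.8 in sM-CSF. Ddit3 (CHOP, a factor linked to cell death under lasting stress) measured 22.7, 37.5 and 23.5 FPKM, from 175, 280 and 182 counts, a ratio of mM-CSF over control of 1.70 (1.40 to 2.06). Both were highest in mM-CSF and neither met the size rule.

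Set side by side for mM-CSF against control, 9 of the 30 folding, translocation and degradation genes were higher and none lower, where 8.97% of all genes with 5 FPKM in the higher library were higher and 15.1% lower. Of the 4 sensors and factors, none was higher and 2 were lower. The median difference was 0.50 for the 30, -0.37 for the 4 and -0.07 for all genes at 1 FPKM or more. With TPM in place of FPKM, a scaling that moves the median of all genes by -0.45, 5 members were called higher and 2 lower, beside 2.50% and 30.3% of all genes, and the 30 had a median of 0.04. The 30 genes and the typical gene thus dropped by nearly the same amount. Over 9 settings of the pseudocount, scaling and length trend, 17 of the 34 members kept the sign of this difference in every one.

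The differences ran with the length of the gene, across the whole library and within the members. In mM-CSF against control, the running median over 20 length bins of the 9251 genes with a mean of at least 5 FPKM went from 1.09 in the shortest bin to -1.21 in the longest. Of the 9 higher members, 7 were under 1500 bases, as was 1 of the other 25 (Ddit3). In sM-CSF against control the running median covered a smaller range, from 0.33 to -0.31.

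**Figure D3:**
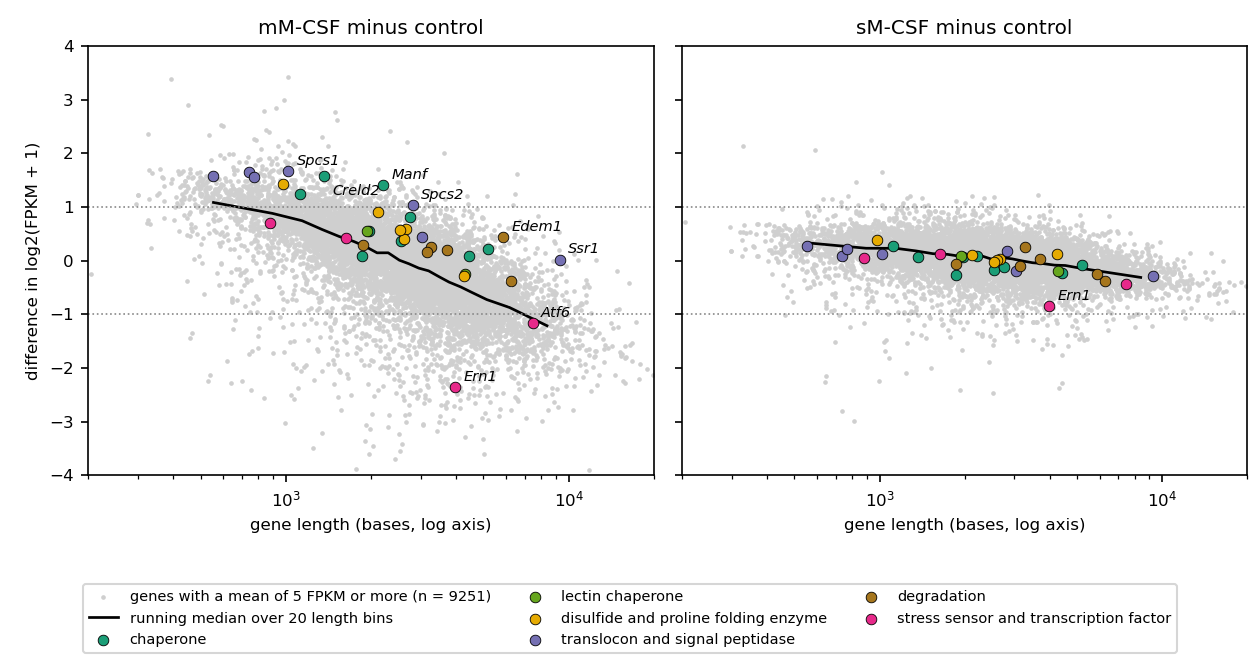
Difference in log2(FPKM + 1) from control against gene length in bases (log axis) for genes with a mean of at least 5 FPKM (grey; genes beyond the axes are not drawn) and the 34 members (coloured by role), with the running median over 20 length bins (black) and dotted lines at the 2-fold size rule. In the mM-CSF panel the median line runs from 1.09 to -1.21, most members lie on or above it, and Ern1 lies far below it; the slope in the sM-CSF panel is smaller.

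When this running median was subtracted, the folding genes as a group stayed above the typical gene of their length, but the members that met the rule changed. Calls for mM-CSF against control were then 5 higher and 1 lower, beside 2.93% and 7.95% of all genes. Manf (1.26), Creld2 (1.01) and Spcs2 (1.13) were higher both ways. The long genes Ssr1 (1.23) and Edem1 (1.27) were added, while Sdf2l1, Ppib, Sec61b, Ssr4, Spcs1 and Sec11c fell short, at 0.48 to 0.87. The median of the 30 was 0.58 and 29 of them were above 0, Dnajb9 at -0.20 being the exception.

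The sensors split under the same subtraction. Ern1 kept a difference of -1.91 in mM-CSF against control. Atf6, with 7463 bases, moved from -1.17 to -0.09, close to the running median of genes of its length. Atf4 came to 0.02 and Ddit3 to -0.19.

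**Figure D4:**
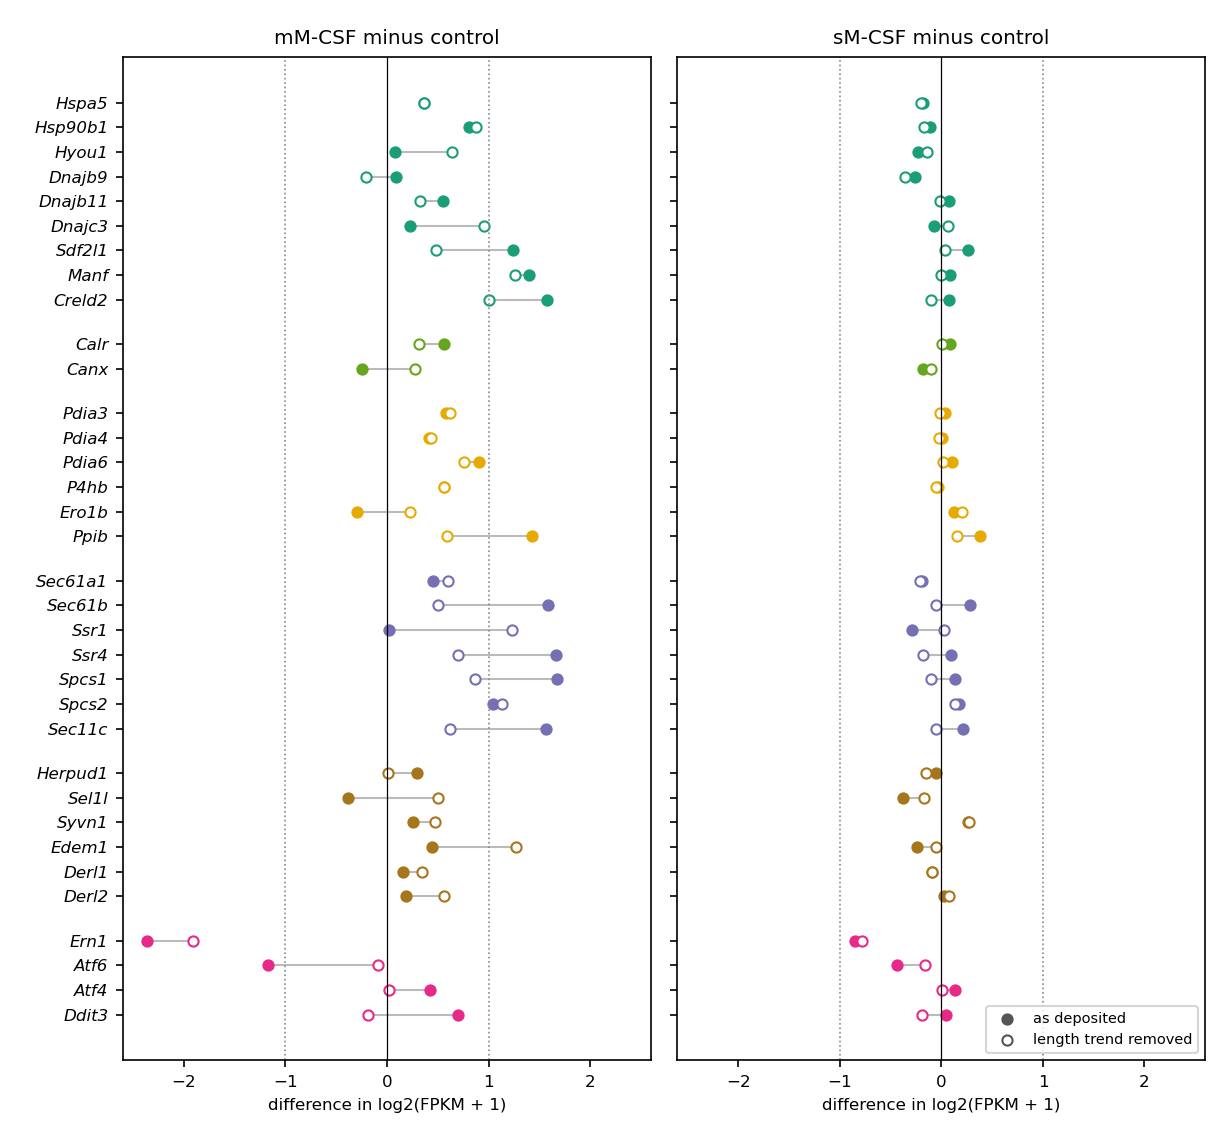
Difference in log2(FPKM + 1) from control for each of the 34 members as deposited (filled) and with the running median over gene length removed (open), coloured by role, with dotted lines at the size rule. In the mM-CSF panel short genes such as Sec61b and Ssr4 move left and long genes such as Ssr1, Edem1 and Atf6 move right, while Manf and Spcs2 move little; all points of the sM-CSF panel stay inside the dotted lines.

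In sM-CSF against control, none of the 34 members met the rule in either direction, with or without the length trend, beside 0.785% of all genes higher and 1.63% lower (0.485% and 1.79% without the trend). As deposited, differences ran from -0.85 for Ern1 to 0.38 for Ppib. Members were on both sides of 0, with 19 above it, and their median was 0.03 beside 0.02 for all genes. After Ern1, the lowest were Atf6 (-0.44) and Sel1l (-0.38). By role the medians lay between -0.20 for the sensors and factors and 0.13 for the translocon and signal peptidase. With the trend removed, 11 of the 34 were above 0 and their median was -0.05, beside -0.003 for all genes. The sensors and factors then had a median of -0.18, and the translocon and signal peptidase -0.06. At these depths the counting intervals are narrow, so that a Ppib ratio of 1.31 is outside counting error, but variation between animals was not measured.

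Between the M-CSF groups, the mM-CSF library had 7 members higher than sM-CSF and 1 lower, beside 3.79% and 8.73% of all genes. Higher were Ssr4 (1.57), Spcs1 (1.54), Creld2 (1.498), Sec11c (1.35), Manf (1.32), Sec61b (1.31) and Ppib (1.04), and lower was Ern1 (-1.51). Creld2 was 2.87 times (2.64 to 3.11) and Manf 2.53 times (2.36 to 2.71) as high in mM-CSF. With the length trend removed, 6 were higher and Ern1 was lower, beside 1.99% and 4.67% of all genes. Manf and Creld2 met the rule both ways, joined by Hsp90b1, Ssr1, Spcs2 and Edem1. The median of the 30 folding, translocation and degradation genes was 0.55 and that of the sensors and factors -0.22, beside -0.11 for all genes. This comparison and that with the control share the mM-CSF library.

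The rest of the pathway was read from 7 lists with 120 genes, of which 118 were listed and 110 had at least 5 FPKM in the higher library of mM-CSF and control. Of these, 21 were higher in mM-CSF and 8 lower, beside 8.97% and 15.1% of all genes, or 11 and 5 with the length trend removed, beside 2.93% and 7.95%. None met the rule in sM-CSF against control. Other folding enzymes and chaperones had 8 of 17 higher and none lower, with a median difference of 0.78. The oligosaccharyltransferase, which attaches N-glycans, had 3 of 11 higher, and other translocation genes 4 of 16, again with none lower in either list. The other lists were mixed. Degradation had 3 higher and 2 lower of 21, and targets of the integrated stress response 3 and 3 of 15. Other sensors had 0 and 2 of 10, and transport from ER to Golgi 0 and 1 of 20. With the length trend removed, 3 of the other folding genes, 1 oligosaccharyltransferase gene and 1 translocation gene were higher. Degradation then had 3 higher and 1 lower, stress response targets 3 and 3, other sensors 0 and 0, and transport 0 and 1. The median of the other sensors went from -0.61 to -0.09.

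The folding and translocation genes named next were picked from their lists for the size of this difference, so their order is a description only. In the list of other folding enzymes and chaperones, 7 of 19 genes had a difference below 0. Prdx4, an ER peroxidase, measured 27.8 FPKM in control, 115.8 in mM-CSF and 29.6 in sM-CSF. The proline isomerase Fkbp2 measured 51.6, 208.3 and 73.4 FPKM, and Fkbp11 measured 9.93, 39.2 and 8.78 FPKM. With the trend removed their differences from control in mM-CSF were 1.18, 0.97 and 0.95. Of the oligosaccharyltransferase subunits, Krtcap2 measured 86.7, 320.9 and 111.5 FPKM, Dad1 114.5, 303.3 and 151.2 FPKM, and Ostc 65.2, 158.1 and 76.9 FPKM. Of the translocation genes, the signal recognition particle gene Srp9 measured 35.8, 91.9 and 47.7 FPKM, Sec61g 36.1, 92.6 and 44.8 FPKM, and Ssr2 112.9, 259.0 and 103.3 FPKM. All 6 fell to differences between 0.38 and 0.79 once the trend was removed.

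Degradation and stress genes were less uniform. Derl3, the third derlin and the only other pathway gene with an ERSE in its promoter, measured 30.9 FPKM in control, 105.1 in mM-CSF and 34.0 in sM-CSF, and Edem2 measured 43.9, 108.9 and 51.4 FPKM. Both stayed at 1.15 with the trend removed. The ubiquitin ligase Marchf6 was lower, at 27.1, 9.93 and 18.4 FPKM. Xbp1, whose message is the substrate of IRE1, measured 163 FPKM in control, 328 in mM-CSF and 136 in sM-CSF. Its ratio of mM-CSF over control was 2.02. The log2 difference of 0.9999 lay just under the rule, and was 0.85 with the trend removed. Against sM-CSF, Xbp1 was higher in mM-CSF both ways, at 1.26 as deposited and 1.23 with the trend removed. Gene totals do not separate its spliced form. Mbtps2, a protease that cleaves ATF6, measured 6.35, 1.62 and 5.17 FPKM, and the amino acid sensor kinase Eif2ak4 (GCN2) measured 10.1, 3.29 and 8.12 FPKM. Marchf6, Mbtps2 and Eif2ak4 all lost their lower call with the trend removed, at -0.48, -0.84 and -0.65.

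Targets of the integrated stress response moved in both directions in mM-CSF. Atf3, a stress-inducible factor, measured 40.7 FPKM in control, 3.75 in mM-CSF and 21.7 in sM-CSF, and Ppp1r15a (GADD34, which restores translation) measured 89.2, 31.9 and 66.1 FPKM. Both had Ern1's order of libraries, and their differences from control in mM-CSF were -3.36 and -1.57 with the trend removed. Phgdh, an enzyme of serine synthesis, measured 53.3, 142.2 and 59.5 FPKM, and stayed at 1.11 with the trend removed. In transport to the Golgi, the vesicle coat genes Sec24b (26.9, 7.92 and 20.5 FPKM) and Sec24a (7.81, 4.32 and 6.15 FPKM) were lowest in mM-CSF, and the retrieval receptor Kdelr2 was highest there (27.0, 51.2 and 24.4 FPKM). With the trend removed their differences from control in mM-CSF were -1.02, 0.25 and 0.61, so that Sec24a changed sign.

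**Figure D5:**
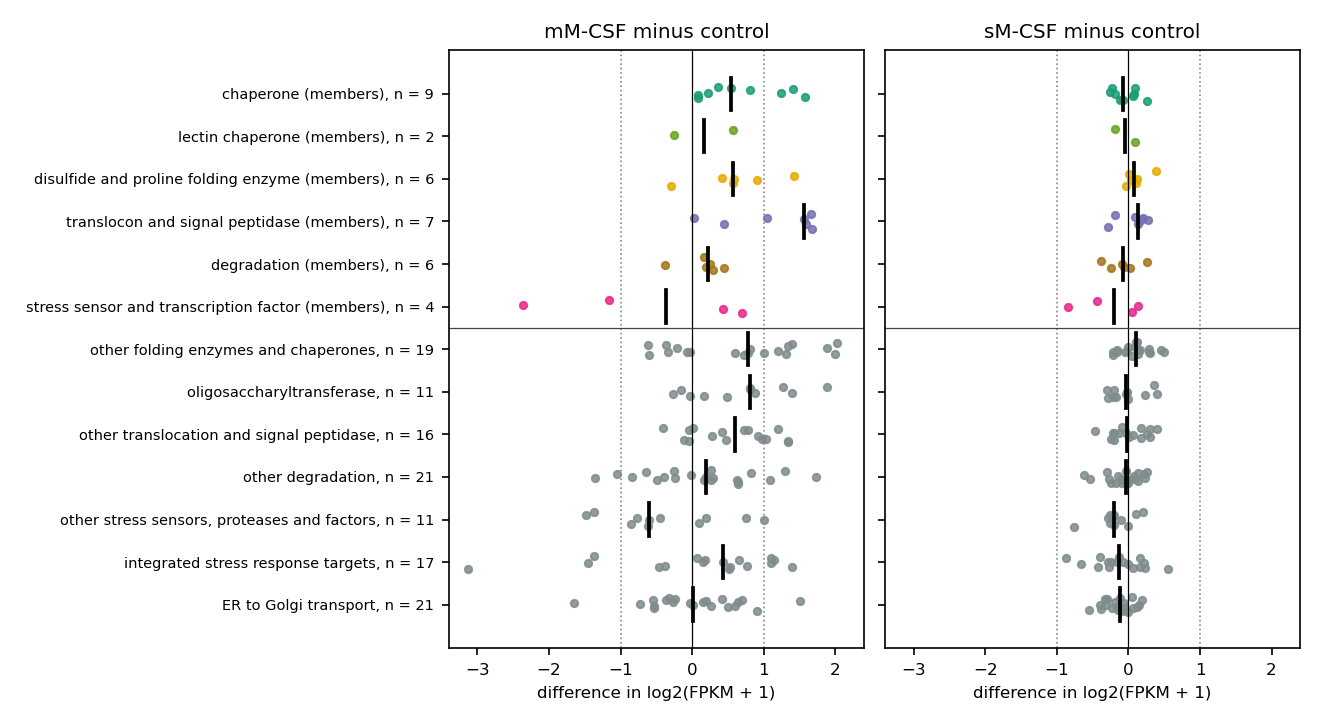
Difference in log2(FPKM + 1) from control for the members by role (coloured) and the other pathway genes by list (grey), 1 point per gene at 1 FPKM or more in any library, with the median of each list as a black bar and dotted lines at the size rule, which also asks for 5 FPKM. In the mM-CSF panel the medians of folding, glycosylation and translocation lists lie between 0.16 and 1.56 and those of both sensor lists at -0.37 and -0.61; in the sM-CSF panel all medians lie between -0.20 and 0.13.

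Some markers of secretory cells and of other cell types were also higher in the mM-CSF library. Of the 7 plasma cell genes listed, 4 were higher in mM-CSF than in control and none lower, beside 8.97% and 15.1% of all genes. With the length trend removed, 2 were higher and 1 (Tnfrsf13b) lower, beside 2.93% and 7.95%. The median difference of the 7 was 1.59, or 0.94 without the trend. Jchain, the joining chain of polymeric antibody, measured 1008 FPKM in control, 3301 in mM-CSF and 1072 in sM-CSF, and Mzb1, an ER protein of antibody-secreting cells, measured 174, 612 and 191 FPKM. Sdc1 measured 11.5, 36.7 and 12.4 FPKM and Tnfrsf17 measured 7.12, 29.4 and 8.35 FPKM. The other 3 had differences below 0, with Prdm1 at 7.10, 6.14 and 5.25 FPKM, Irf4 at 35.2, 28.8 and 35.1 FPKM, and Tnfrsf13b at 36.1, 18.2 and 39.1 FPKM. None of the listed plasma cell genes was at 0 in any library, and none met the rule in sM-CSF against control. Of the 7 primary granule genes, 6 were higher in mM-CSF than in control, with a median of 2.24. The part of these cells in the higher levels of the folding genes was not tested.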

How the data were processed

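RNA from sorted splenic macrophages was measured in 3 libraries, 1 per group. Per the submitters' processing notes, Bowtie2 (2.2.5) and RSEM were used. The genome build and annotation: not given in the sources used here. Per the file headers, each deposited table gives a gene length, an expected count, which is the authors' estimate of the reads of a gene, and an FPKM value, the authors' scaling of it by length and library. A gene missing from a table counted as 0. Symbols came from a RefSeq table of GRCm38.p6, which named 17561 of 17615 genes.

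Differences were taken on the log2(FPKM + 1) scale, which understates changes of low genes. In control, mM-CSF and sM-CSF, 3 counts amount to 0.330, 0.350 and 0.335 CPM. Ratios of count shares have exact conditional (Clopper-Pearson) 95% intervals for counting error only. The length trend was the running median over 20 bins, interpolated on log length and held level beyond the outer bins. Counting strand was not given, and counts were whole within 0.005 reads for 31 to 32 members per library. Every member was named, with up to 3 genes per pathway list, those with the largest difference between mM-CSF and control at 5 FPKM or more. Alg12 was chosen after its values were seen. Members and lists were chosen with earlier results of these data known. Python 3.11.15, numpy 2.4.6, pandas 2.3.3, scipy 1.17.1 and, for TMM, edgeR 4.0.16 in R 4.3.3 were used, and the steps were tested on simulated data. Alternatives covered the pseudocount, the minimum, the size rule, the scaling and the length trend.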

Additional observations from a re-analysis of the deposited data

How the results depend on the processing

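No paired analysis was possible because each group has 1 library, and no library could be left out. Among the calls, the 9 members higher in mM-CSF than in control became 5 with TPM, 5 with the length trend removed and 2 at 3-fold (2.50%, 2.93% and 1.45% of all genes). The 2 lower became 1 with a pseudocount of 5, upper-quartile scaling, the trend removed or 3-fold (7.97%, 11.5%, 7.95% and 5.73% of all genes lower). Ern1 was lower there under all 14 alternatives, Creld2 higher under 13 and Manf under 12. In sM-CSF against control, the 0 lower became 1 (Ern1) with TPM or at 1.5-fold (3.24% and 5.80% of all genes lower). Between mM-CSF and sM-CSF, the 7 higher became 15 at 1.5-fold and 0 at 3-fold (15.0% and 0.668% of all genes). The 1 lower became 0 with a pseudocount of 5, a minimum of 10 FPKM or 3-fold (3.47%, 8.08% and 2.17% of all genes lower). That count became 2 with TPM or 1.5-fold (19.8% and 22.1% of all genes lower). The median difference of the folding, translocation and degradation genes in mM-CSF against control, 0.50, became 0.0399 with TPM, 0.59 with median-of-ratios, 0.62 with TMM and 0.68 with upper-quartile scaling, and 0.58 with the trend removed. That of sM-CSF against control, 0.03, became -0.11 with TPM. That of mM-CSF against sM-CSF, 0.55, became 0.23, 0.68, 0.69, 0.72 and 0.66 in the first order. The median of the sensors and factors in mM-CSF against control, -0.37, became -0.26 with a pseudocount of 5, -0.84 with TPM, -0.25 with TMM, -0.19 with upper-quartile scaling and -0.14 with the trend removed. In mM-CSF against sM-CSF, -0.22 became -0.54 with TPM, -0.0881 with median-of-ratios, -0.0845 with TMM, -0.0528 with upper-quartile scaling and 0.00685 with the trend removed. These scalings moved the median of all genes in mM-CSF against control by -0.45 (TPM), 0.08 (median-of-ratios), 0.11 (TMM) and 0.17 (upper quartile). Why the settings differ was not tested. With 1 library per group, counting intervals do not hold the spread between animals.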

Other observations

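Outside the 34 genes, 28 other genes held an ERSE in the searched promoter window. Of these, 7 reached 1 FPKM in any library and their median difference in log2(FPKM + 1) was -0.06 for mM-CSF against control, beside 0.36 for the 9 members that held one. Derl3 was the only one of the 5 with at least 5 FPKM that was counted as higher. The UPRE string was in 8 of the 95 pathway genes with a promoter, which were Copb1, Kdelr3, Sec23a, Sec24d, Txndc11, Txndc5, Ube2j1 and Vcp, and Krtcap2 was the only pathway gene with an ERSE-II. Non-classical monocyte genes summed to 1038 FPKM in control, 312 in mM-CSF and 432 in sM-CSF.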
